A study of Mus musculus with 6 samples.

Results

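Genomic imprinting was examined in coronary endothelial cells (ECs) of the fetal mouse heart. An imprinted gene is transcribed mainly from 1 parental copy, because a methylation mark laid down in the egg or the sperm is kept on that copy after fertilization. Most imprinted genes lie in clusters, each governed by an imprinting control region and often by a long non-coding RNA (lncRNA), and many of them set fetal growth: maternally expressed members such as *H19*, *Cdkn1c* and *Grb10* are known to hold growth back, and paternally expressed members such as *Mest*, *Peg3* and *Plagl1* are mostly known to promote it or to form part of the same growth network. The 35 genes described here were taken by symbol from the 55416 genes of the count table, whatever their counts. They were sorted into 11 genes with maternal expression, 19 with paternal expression and 5 set apart because their imprinting is known to depend on tissue or isoform (*Gnas*, *Blcap*, *Ppp1r9a*, *Trappc9* and *Inpp5f*). Genes of the maternal and paternal classes, *Grb10* among them, may also differ in imprinting by tissue or isoform. These parental assignments are background knowledge, since a read count per gene does not tell the alleles apart.

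The libraries came from mGFP-sorted cells of E15.5 hearts, 3 from *ControlΔEC* and 3 from *Wt1KOΔEC* embryos. *ControlΔEC* embryos were Pdgfb-CreERT2/+; Wt1-+/+; R26-mTmG/+ and *Wt1KOΔEC* embryos were Pdgfb-CreERT2/+; Wt1-LoxP/LoxP; R26-mTmG/+, so that both carried the tamoxifen-inducible Cre under *Pdgfb* control and the membrane reporter, and both came from dams given tamoxifen at 75 mg/kg between E11.5 and E13.5. The labels describe embryos of both genotypes as littermates. *Wt1*, which encodes a zinc finger transcription factor, stood at 110 to 149 CPM (read counts scaled to library size) in *ControlΔEC* and at 14.0 to 21.3 CPM in *Wt1KOΔEC*, a log2 fold change of -2.91 (SE 0.22). The sort kept the cells in which Cre had acted, which is not the same as a pure population. The endothelial list was led by *Pecam1*, an adhesion molecule of ECs, at a mean of 1635 and 1575 CPM, and its summed level overlapped between the genotypes (5617 to 7132 against 6024 to 6951 CPM). Summed markers of 4 other cell types did not overlap. The fibroblast list, led by the collagen gene *Col3a1*, ran from 725 to 1065 CPM in *ControlΔEC* and from 1457 to 1643 CPM in *Wt1KOΔEC*, the epicardial list, led by *Clu*, from 44.8 to 52.0 and from 68.6 to 89.7 CPM, and the endocardial list, led by *Nfatc1* in *ControlΔEC* and by *Plvap* in *Wt1KOΔEC*, from 298 to 384 and from 692 to 811 CPM, whereas the mural list, led by *Abcc9*, was lower in *Wt1KOΔEC* (477 to 644 against 330 to 389 CPM). The endocardial list was not uniform: *Plvap*, with means of 68.1 and 338 CPM, *Gata4* and *Hapln1* were higher in *Wt1KOΔEC* without overlap. *Nfatc1*, *Npr3* and *Cytl1* overlapped between the genotypes. In these bulk libraries fewer cells of a type and less RNA per cell cannot be told apart, and the part of these markers in the results below was not tested.

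Of the 35 imprinted genes, 34 had a count in at least 1 library, 31 had enough counts to be tested (at least 10 in at least 2 libraries) and 22 reached a mean of 10 CPM in a genotype. Together they took between 1.21% and 1.84% of all counts. *Mest* alone, which encodes an alpha/beta hydrolase-fold protein of the fetal mesoderm, supplied 46.9% to 69.9% of the members' counts, and *Mest*, *Gnas* and *H19* together 81.5% to 89.8%. *Mest* ranked 22 in mean CPM per kilobase of exon among the 16238 genes tested that had a length, at 806 in *ControlΔEC*, followed among the members by *H19* with 438 (rank 41) and *Gnas* with 214 (rank 97). *Cdkn1c* had 79.9, *Plagl1* 55.4 and *Grb10* 50.7 CPM per kilobase. On this scale, which divides by all annotated exons and so sets long, mostly unspliced RNAs low, the median was 0.43 for the maternally expressed members tested, 2.43 for the paternally expressed ones and 1.93 for all genes tested.

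**Figure D1:**
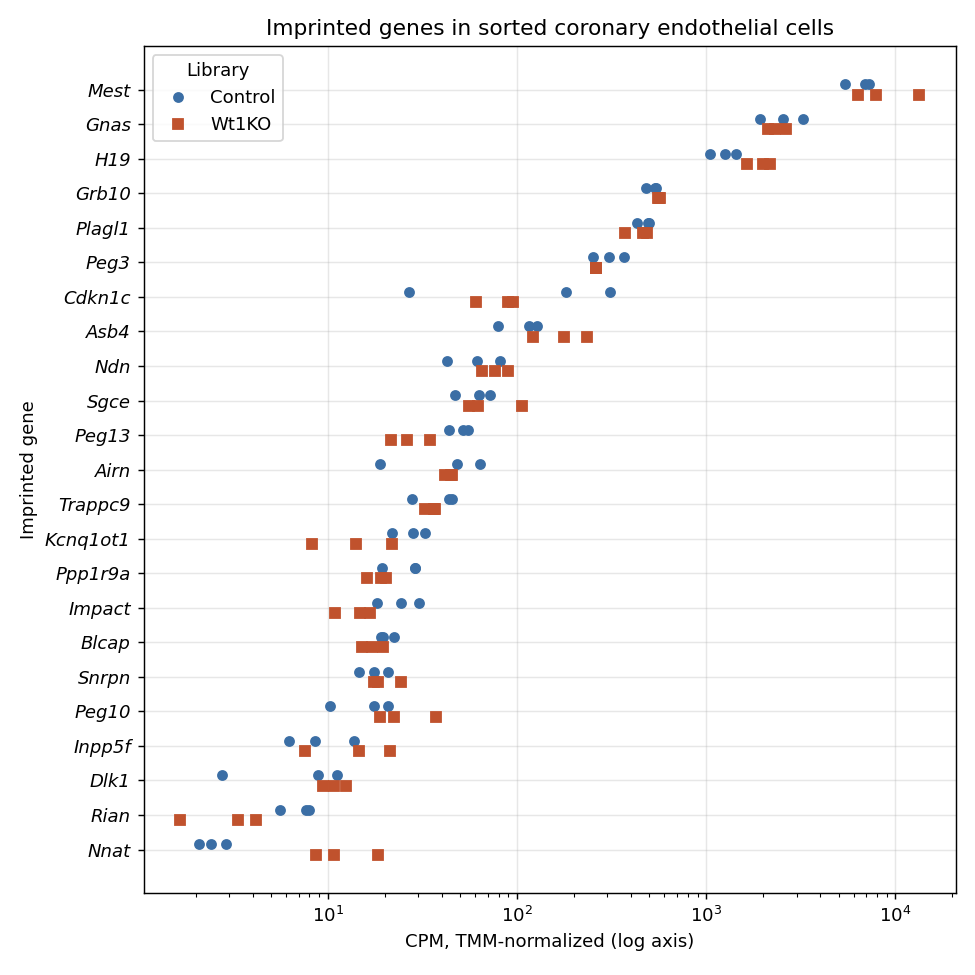
TMM-normalized CPM (log axis) of the 23 imprinted genes with at least 10 CPM in a genotype or an unadjusted p under 0.05, ordered by their *ControlΔEC* mean; circles are the 3 *ControlΔEC* and squares the 3 *Wt1KOΔEC* libraries. The genes spread from *Mest* at 5382 CPM or more to *Nnat* at 2.08 to 2.90 CPM in *ControlΔEC*, and most pairs of genotypes overlap.

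The comparison of *Wt1KOΔEC* with *ControlΔEC* asks whether loss of *Wt1* in ECs altered these levels. No imprinted gene was called by edgeR's quasi-likelihood test at an adjusted p under 0.05 with an absolute log2 fold change above 0.58, where 12 of 16296 genes tested were called (0.0736%). At an unadjusted p under 0.05, 7 of the 31 imprinted genes tested passed (22.6%) beside 13.1% of all genes tested, and the same 7 also passed the fold limit, as 10.1% of all genes tested did. *Nnat*, *H19* and *Asb4* were the 3 on the higher side in *Wt1KOΔEC* (background 5.96%), and *Peg13*, *Impact*, *Kcnq1ot1* and *Rian* the 4 on the lower side (background 7.12%). For 7 members no library of a genotype fell within the range of the other, only narrowly for *Kcnq1ot1*, beside 19.3% of all genes tested: *Nnat*, *H19* and *Grb10* were higher in *Wt1KOΔEC* (background 10.3%) and *Peg13*, *Impact*, *Kcnq1ot1* and *Rian* lower (background 8.97%). DESeq2, the tool the study's methods name, called 3 members (*Nnat*, *H19* and *Peg13*) at the same limits, where it called 4.83% of all genes. With 3 libraries against 3, an exact permutation test of 1 gene cannot go below a p of 0.1, so the fits that share information across genes are given throughout.

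*Nnat*, a paternally expressed gene for neuronatin, a small membrane protein of the endoplasmic reticulum, differed most in relation to its error. It had 2.41, 2.90 and 2.08 CPM in *ControlΔEC* and 10.7, 8.71 and 18.3 CPM in *Wt1KOΔEC*. Every *Wt1KOΔEC* library lay above every *ControlΔEC* library, and *Wt1KOΔEC* replicate 3 was the highest. The counts behind these values were 60 to 143 and 310 to 463. The log2 fold change was 2.35 (SE 0.42, edgeR adjusted p = 0.108), and the DESeq2 adjusted p was 1.06e-05. When each library was left out in turn the log2 fold change stayed between 1.98 and 2.56.

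*Nnat* lies within *Blcap*, which encodes a small membrane protein, and exons of the pair overlap on opposite strands (*Nnat* at chr2:157401879-157404573 on the plus strand, *Blcap* at chr2:157398270-157413194 on the minus strand, GRCm39). The library protocol is not stated to keep the strand, so reads of the shared stretch could be assigned to either gene. *Blcap* had 19.6, 19.2 and 22.3 CPM in *ControlΔEC* and 17.1, 19.5 and 15.2 CPM in *Wt1KOΔEC*, which overlapped (log2 fold change -0.24, SE 0.23, edgeR adjusted p = 0.757). The ratio of *Nnat* to *Blcap* counts was 0.12, 0.15 and 0.093 in *ControlΔEC* and 0.63, 0.45 and 1.20 in *Wt1KOΔEC*, without overlap. *Nnat*, *Blcap* and *Gnas* lie on chromosome 2, which also carries *Wt1*, so a difference linked to the floxed allele and the loss of *Wt1* cannot be told apart for them.

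*H19*, a maternally expressed lncRNA at chr7:142129262-142133957 on the minus strand, was the most abundant member among the 7. Its level was 1252, 1443 and 1046 CPM in *ControlΔEC* and 2171, 1995 and 1639 CPM in *Wt1KOΔEC*, with no overlap (log2 fold change 0.63, SE 0.17, edgeR adjusted p = 0.209, DESeq2 adjusted p = 0.0164). *Igf2*, the paternally expressed growth factor gene that shares enhancers with *H19* and is no member here, had 2473, 2081 and 1886 CPM against 4042, 3281 and 2933 CPM (log2 fold change 0.67, SE 0.17, edgeR adjusted p = 0.190). The ratio of *H19* to *Igf2* counts was 0.51, 0.69 and 0.55 in *ControlΔEC* and 0.54, 0.61 and 0.56 in *Wt1KOΔEC*. The ratios overlapped although the levels of both genes did not.

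*Asb4*, a maternally expressed gene for an ankyrin repeat and SOCS box protein of embryonic vessels, had 116, 79.0 and 127 CPM in *ControlΔEC* and 233, 177 and 121 CPM in *Wt1KOΔEC*. *Wt1KOΔEC* replicate 3 lay below the highest *ControlΔEC* library, so the genotypes overlapped (log2 fold change 0.72, SE 0.26, edgeR adjusted p = 0.299). Its paternally expressed neighbours on chromosome 6, *Peg10*, a gene derived from a retrotransposon, and *Sgce*, which encodes epsilon-sarcoglycan, had their highest value in that same library. *Peg10* had 10.3, 17.5 and 20.8 CPM against 22.4, 18.9 and 37.1 CPM (log2 fold change 0.69, SE 0.35, edgeR adjusted p = 0.451). *Sgce* had 62.6, 46.8 and 71.8 CPM against 62.4, 55.5 and 106.6 CPM (0.31, SE 0.27, edgeR adjusted p = 0.720), and leaving out *Wt1KOΔEC* replicate 3 turned its log2 fold change to -0.036. *Ppp1r9a*, which encodes the actin-binding protein neurabin and lies between *Sgce* and *Asb4*, had 19.3, 28.8 and 28.9 CPM against 16.1, 20.3 and 19.1 CPM (-0.47, SE 0.25, edgeR adjusted p = 0.472). The ratio of *Asb4* to *Sgce* counts, from opposite parental copies, overlapped at 1.69 to 1.85 in *ControlΔEC* and 1.13 to 3.74 in *Wt1KOΔEC*.

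*Peg13*, a paternally expressed lncRNA inside *Trappc9* at chr15:72677449-72682173 on the minus strand, was lower in *Wt1KOΔEC*. It had 55.1, 43.5 and 51.9 CPM in *ControlΔEC* and 21.6, 34.9 and 26.3 CPM in *Wt1KOΔEC*. All 3 *Wt1KOΔEC* libraries lay under the lowest *ControlΔEC* library (log2 fold change -0.86, SE 0.23, edgeR adjusted p = 0.209, DESeq2 adjusted p = 0.0148). *Trappc9*, which encodes a subunit of a vesicle-tethering complex, had 27.7, 45.3 and 43.7 CPM against 37.0, 36.5 and 32.5 CPM, which overlapped (-0.14, SE 0.23, edgeR adjusted p = 0.881). The pair shares exonic sequence on the same strand, so their counts depend on how reads were divided between them. The ratio of *Trappc9* to *Peg13* counts reached 0.50, 1.04 and 0.84 in *ControlΔEC* and 1.71, 1.05 and 1.23 in *Wt1KOΔEC*, where the second replicates of the genotypes nearly met.

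*Kcnq1ot1*, the paternally expressed lncRNA that is known to silence its neighbours in cis, lies antisense within *Kcnq1* on chromosome 7. It had 21.8, 32.5 and 28.2 CPM in *ControlΔEC* and 8.22, 14.2 and 21.8 CPM in *Wt1KOΔEC*. The lowest *ControlΔEC* and the highest *Wt1KOΔEC* library were equal to 3 significant digits (log2 fold change -0.90, SE 0.36, edgeR adjusted p = 0.330). The ratio of *Kcnq1ot1* to *Kcnq1* counts overlapped, at 0.79 to 1.09 against 0.26 to 1.65, and without strand the counts of this antisense pair cannot be separated. *Cdkn1c*, the maternally expressed gene for the cyclin-dependent kinase inhibitor p57 and the cluster's abundant coding member, varied more among *ControlΔEC* libraries than any other member above 10 CPM, at 181, 309 and 27.0 CPM, against 89.4, 94.8 and 60.5 CPM in *Wt1KOΔEC*. *ControlΔEC* replicate 3 held both its lowest value and an 11.46-fold distance to the highest. The log2 fold change of -1.08 (SE 0.64, edgeR adjusted p = 0.543) ranged from -1.58 without *ControlΔEC* replicate 3 to -0.35 without *ControlΔEC* replicate 2. *Phlda2*, a brake on placental growth, had at most 0.79 CPM and *Slc22a18*, a membrane transporter, at most 3.99 CPM. *Ascl2*, a transcription factor of the trophoblast, had 4 counts in a single library and was not tested.

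*Impact*, a paternally expressed gene for an inhibitor of the kinase GCN2, lay outside these clusters. It had 18.2, 30.4 and 24.5 CPM in *ControlΔEC* and 16.8, 10.9 and 14.9 CPM in *Wt1KOΔEC*, without overlap (log2 fold change -0.78, SE 0.28, edgeR adjusted p = 0.295). *ControlΔEC* replicate 1 and *Wt1KOΔEC* replicate 1 were the nearest values.

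Members of the *Dlk1*-*Dio3* cluster on chromosome 12 had low counts in these libraries. *Rian*, a maternally expressed lncRNA that hosts small nucleolar RNAs, had 5.57, 7.62 and 7.98 CPM in *ControlΔEC* and 1.66, 3.37 and 4.19 CPM in *Wt1KOΔEC*, without overlap (log2 fold change -1.20, SE 0.51, edgeR adjusted p = 0.361). *Meg3*, the lncRNA upstream of it, is thought to be part of the same transcription unit, but its libraries overlapped, with 4.40, 10.7 and 9.96 CPM against 0.84, 6.91 and 13.7 CPM (-0.23, SE 0.79, edgeR adjusted p = 0.952). *Wt1KOΔEC* replicate 1 held the lowest and *Wt1KOΔEC* replicate 3 the highest value of *Meg3*, a 16.2-fold spread within 1 genotype. Without the first of these the log2 fold change of *Meg3* was 0.30, and without the second -1.11. *Dlk1*, the paternally expressed gene for a membrane protein related to Notch ligands, had 8.87, 2.76 and 11.2 CPM against 12.4, 9.38 and 10.8 CPM (0.52, SE 0.49, edgeR adjusted p = 0.750). Its value was 0.12 without *ControlΔEC* replicate 2 and 0.91 without *ControlΔEC* replicate 3. The microRNA host *Mirg* and the retrotransposon-derived *Rtl1* stayed under 1 CPM in every library. *Dio3*, which encodes a thyroid hormone-inactivating deiodinase, had no count in any library, which allows up to 0.061 to 0.119 CPM per library if 3 counts are taken as the limit.

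**Figure D2:**
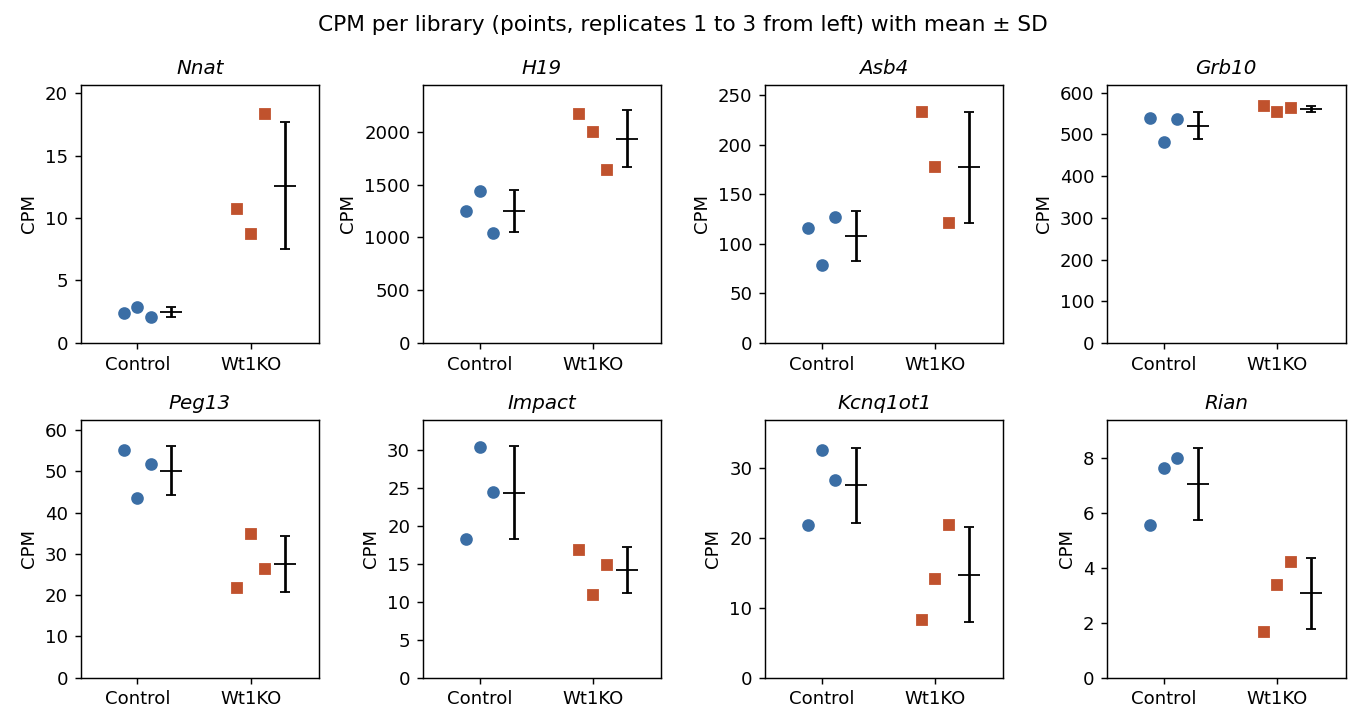
CPM per library of the 7 imprinted genes with an unadjusted p under 0.05 and of *Grb10*, each with its own linear axis from 0; points are replicates 1 to 3 from left to right and the bars show mean ± SD (n = 3). *Nnat* lies at 2.90 CPM or less in *ControlΔEC* and at 8.71 CPM or more in *Wt1KOΔEC*, *Asb4* overlaps, and the groups of *Kcnq1ot1* meet at 21.8 CPM.

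*Mest*, the most abundant member, had 7244, 5382 and 6880 CPM in *ControlΔEC* and 7849, 6331 and 13248 CPM in *Wt1KOΔEC* (log2 fold change 0.49, SE 0.25, edgeR adjusted p = 0.463). *Wt1KOΔEC* replicate 3 stood apart from the others, and without it the log2 fold change was 0.12. *Gnas*, which encodes the stimulatory G protein alpha subunit, had 3265, 2533 and 1914 CPM against 2650, 2320 and 2132 CPM (-0.12, SE 0.20, edgeR adjusted p = 0.882). Its sign turned, to 0.092, without *ControlΔEC* replicate 1. Exons of *Mest* overlap those of *Copg2*, and exons of *Gnas* those of *Gnasas1*, on opposite strands. The limit given above for reads shared by *Nnat* and *Blcap* holds for these pairs.

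*Grb10*, which encodes an adaptor that dampens insulin and insulin-like growth factor receptor signalling, had the smallest spread within genotypes of the members with at least 10 CPM. Its libraries had 540, 483 and 538 CPM in *ControlΔEC* and 567, 553 and 563 CPM in *Wt1KOΔEC*. The groups did not overlap, but the log2 fold change was 0.11 (SE 0.13, edgeR adjusted p = 0.822), and it was -0.039 when counts were scaled by library size alone. *Plagl1*, a zinc finger transcription factor gene of the growth network, had 499, 495 and 428 CPM against 372, 486 and 462 CPM (-0.11, SE 0.16, edgeR adjusted p = 0.861).

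*Peg3*, another paternally expressed zinc finger gene, had 251, 305 and 367 CPM in *ControlΔEC* and 263, 261 and 262 CPM in *Wt1KOΔEC* (log2 fold change -0.23, SE 0.17, edgeR adjusted p = 0.637). The *Wt1KOΔEC* libraries lay within 1.01-fold of each other and inside the *ControlΔEC* range. Its neighbours *Usp29* and *Zim1* were scarce, with at most 1.73 and 1.25 CPM, and *Zim1* had too few counts to be tested.

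*Ndn*, the paternally expressed gene for the growth suppressor necdin on chromosome 7, had 81.4, 61.3 and 42.6 CPM in *ControlΔEC* and 89.2, 76.4 and 65.0 CPM in *Wt1KOΔEC* (log2 fold change 0.32, SE 0.24, edgeR adjusted p = 0.671). Leaving out *ControlΔEC* replicate 3 gave 0.11 and leaving out *ControlΔEC* replicate 1 gave 0.57. *Snrpn* of the same cluster, which encodes a spliceosomal protein, had 20.7, 17.5 and 14.6 CPM against 24.4, 17.5 and 18.3 CPM (0.19, SE 0.25, edgeR adjusted p = 0.845). Both overlapped. *Magel2*, a relative of *Ndn*, ranged from 0 to 4.31 CPM.

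*Airn*, the paternally expressed lncRNA antisense to *Igf2r*, had 18.98, 63.4 and 48.2 CPM in *ControlΔEC* and 45.5, 41.5 and 44.8 CPM in *Wt1KOΔEC* (log2 fold change 0.01, SE 0.37, edgeR adjusted p = 0.995). The *ControlΔEC* libraries enclosed the *Wt1KOΔEC* ones, and the ratio of *Airn* to *Igf2r* counts overlapped as well (0.068 to 0.22 against 0.11 to 0.16). *Inpp5f*, which encodes a phosphoinositide phosphatase, had 6.21, 8.52 and 13.7 CPM against 7.58, 21.3 and 14.6 CPM (0.61, SE 0.44, edgeR adjusted p = 0.633). *Zdbf2*, a zinc finger gene, ranged from 1.53 to 9.20 CPM, and *Nap1l5*, of the nucleosome assembly protein family, had 9 counts in a single library and was not tested.

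Maternally and paternally expressed genes were then set side by side. Of the 9 maternally expressed genes tested, 5 had a positive and 4 a negative fitted log2 fold change, with a median of 0.11. Of the 17 paternally expressed genes tested, 11 had a positive and 6 a negative value, with a median of 0.31. The median of all genes tested was -0.03, and that of the 5 tissue- or isoform-dependent genes -0.14. At an unadjusted p under 0.05, *H19* and *Asb4* were higher and *Rian* lower among the maternally expressed genes, and *Nnat* was higher and *Peg13*, *Impact* and *Kcnq1ot1* lower among the paternally expressed genes. Both classes thus held members on either side of 0, and no test was made over the members of a class.

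The class medians were not stable. Without *Wt1KOΔEC* replicate 2 the maternal median was -0.67, and without *Wt1KOΔEC* replicate 3 the paternal median was -0.0017. The first of these did not rest on the same genes, since *Phlda2* was then no longer tested. In that fit the scarce *Slc22a18* also turned from 1.33 to -2.07. Values scattered more in the maternal class. The median within-genotype SD of log2(CPM + 0.1) was 1.16 for its members tested, beside 0.42 for the paternally expressed members and 0.46 for all genes tested. Only 4 of the 11 maternally expressed genes reached 10 CPM (*H19*, *Grb10*, *Cdkn1c* and *Asb4*), against 13 of the 19 paternally expressed genes.

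**Figure D3:**
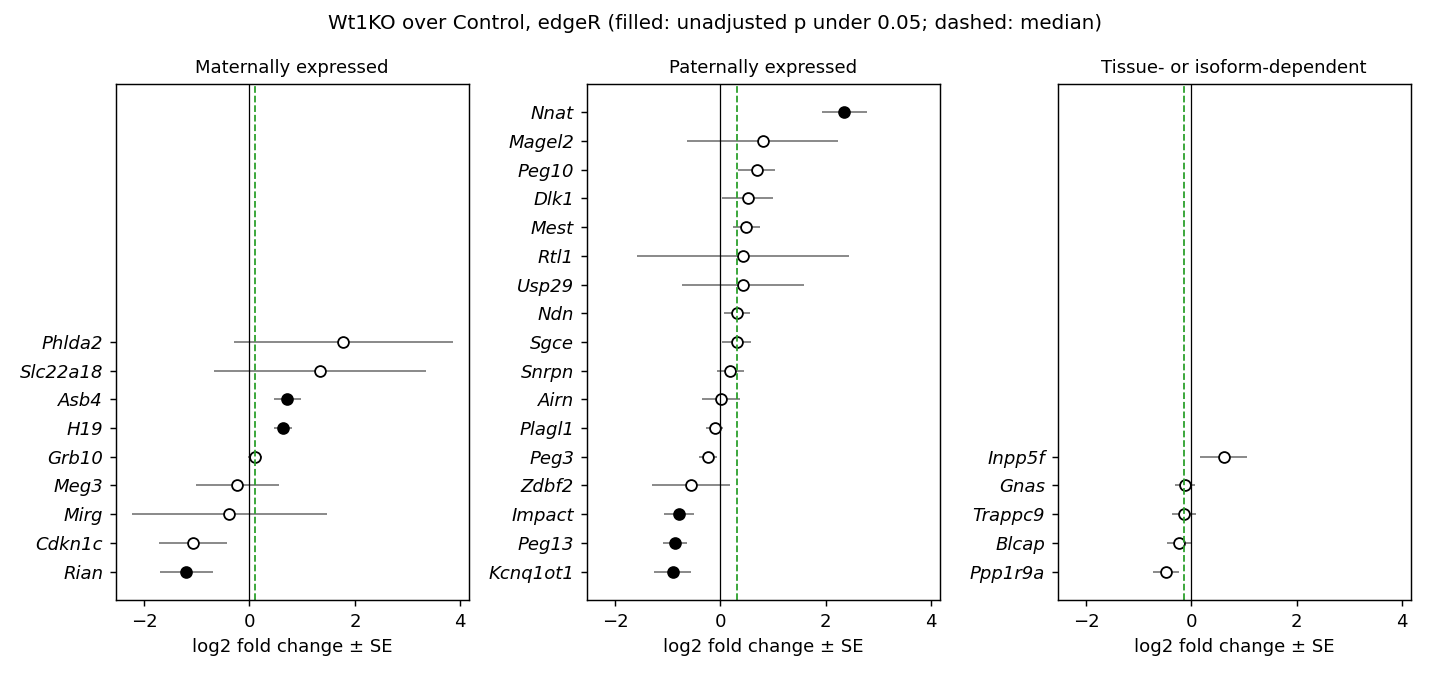
Fitted log2 fold change (*Wt1KOΔEC* over *ControlΔEC*, edgeR) ± SE of the 31 imprinted genes tested, in 3 panels by parental expression; filled points have an unadjusted p under 0.05, the solid line marks 0 and the dashed line each panel's median. Values scatter on both sides of 0 in the maternal (median 0.11) and paternal (median 0.31) panels, with *Nnat* at 2.35 and long error bars for scarce genes such as *Phlda2*.

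By transcript type, 5 of the 7 lncRNA members had a negative fitted log2 fold change (*Peg13*, *Kcnq1ot1*, *Rian*, *Meg3* and *Mirg*) and *H19* and *Airn* a positive one, although that of *Airn* was -0.16 with library size alone, that of *Meg3* was 0.30 without *Wt1KOΔEC* replicate 1 and that of *Mirg* was 1.01 under limma-voom and 1.03 without *ControlΔEC* replicate 3. Their median was -0.38. The median over all 1050 lncRNA genes tested was -0.22, and 611 of these were also negative. The 24 protein-coding members tested had a median of 0.31, with 15 positive and 9 negative values.

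The DNA around the transcription start was read for all 35 genes, because the zinc finger protein ZFP57 is known to recognise TGCCGC at imprinting control regions when it is methylated. Windows ran from 250 bases before to 50 bases after the start of the canonical GENCODE transcript on GRCm39, and both strands were searched. TGCCGC was present in 12 of 35 windows (34.3%), in 4 of 11 maternally expressed genes (36.4%) and in 7 of 19 paternally expressed genes (36.8%). It was present in 14.5% of the windows of genes tested, beside 10 of 31 for members tested (32.3%), and in 7.38% of all gene windows. The members' windows are not all independent, since 2 pairs of them overlap. *Peg10* and *Sgce* are such a pair, and each was counted with the core. The windows follow transcript starts and were not matched to imprinting control regions. Methylation was not measured, and a match is a description of the letters only. Printed below are *Nnat* and *Peg13*, which had the smallest p on the higher and the lower side, and *Mest*, the most abundant member. Capitals mark TGCCGC or its reverse complement GCGGCA.
Nnat, chr2:157401731-157402030, plus strand: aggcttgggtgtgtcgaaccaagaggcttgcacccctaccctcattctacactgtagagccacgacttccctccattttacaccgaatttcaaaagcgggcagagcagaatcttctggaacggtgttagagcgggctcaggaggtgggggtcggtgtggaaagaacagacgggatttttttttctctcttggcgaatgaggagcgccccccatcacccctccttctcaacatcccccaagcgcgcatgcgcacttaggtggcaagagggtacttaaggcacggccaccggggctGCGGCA
Peg13, chr15:72682124-72682423, minus strand: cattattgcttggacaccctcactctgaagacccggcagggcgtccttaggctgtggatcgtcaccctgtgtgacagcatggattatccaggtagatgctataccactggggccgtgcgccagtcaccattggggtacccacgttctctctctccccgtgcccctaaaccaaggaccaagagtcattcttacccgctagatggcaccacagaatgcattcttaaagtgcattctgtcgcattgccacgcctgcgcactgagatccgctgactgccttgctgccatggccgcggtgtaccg
Mest, chr6:30737794-30738093, plus strand: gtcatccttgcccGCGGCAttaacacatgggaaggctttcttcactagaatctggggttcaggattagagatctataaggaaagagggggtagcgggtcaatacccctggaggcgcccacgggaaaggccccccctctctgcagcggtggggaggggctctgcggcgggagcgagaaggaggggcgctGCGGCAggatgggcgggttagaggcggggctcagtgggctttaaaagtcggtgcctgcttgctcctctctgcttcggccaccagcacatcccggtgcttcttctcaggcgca
The *Nnat* window has 1 TGCCGC core, on the opposite strand at its last bases, *Mest* has 2 and *Peg13* has none. Of the 7 members with an unadjusted p under 0.05, only *Nnat* and *H19* held the core.

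Other imprinted genes, from a list of 24 with 19 tested, gave 4 genes with an unadjusted p under 0.05, all higher in *Wt1KOΔEC* and none called by edgeR. Of all genes tested 13.1% passed this p, 5.96% on the higher side. Beside *Igf2* these were *Slc38a4*, an amino acid transporter gene, with 39.1, 18.4 and 19.3 CPM against 43.0, 66.3 and 58.7 CPM (log2 fold change 1.13, SE 0.32, edgeR adjusted p = 0.220), *Dcn*, a matrix proteoglycan gene that is also on the fibroblast list, with a log2 fold change of 0.97 (SE 0.29, edgeR adjusted p = 0.242), and *H13*, a signal peptide peptidase gene, with 0.50 (SE 0.16, edgeR adjusted p = 0.263). *H13* also lies on chromosome 2, so the limit given above for *Nnat* holds for it. Without overlap 5 genes of the list were higher and 2 lower, beside 19.3% of all genes tested. The lower ones were *Ube3a* (-0.30, SE 0.15) and the scarce *Ddc* (-1.25, SE 1.31). The list's median was -0.05, with 9 positive and 10 negative values. DESeq2 called *Igf2*, *Slc38a4* and *Dcn*. Imprinting of the genes on this list, *Dcn* and *Ube3a* among them, may also depend on tissue or isoform. A gene on the list need not be imprinted in these ECs.

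Genes that maintain imprints were expressed in these ECs, with 13 of 15 tested and none called. *Dnmt1*, the maintenance DNA methyltransferase, had means of 206 and 194 CPM, and *Zfp57* itself was present at 31.1 to 52.3 CPM in *ControlΔEC* and 35.3 to 43.8 CPM in *Wt1KOΔEC*. The list's summed level overlapped, at 832 to 989 against 845 to 895 CPM. *Trim28*, the corepressor that ZFP57 recruits, was the single gene under an unadjusted p of 0.05, with 90.4, 75.8 and 68.9 CPM against 100.1, 93.7 and 111.5 CPM (log2 fold change 0.38, SE 0.16, edgeR adjusted p = 0.378). *Zfp445*, another zinc finger gene of imprint maintenance, went the other way without overlap, at 41.7 to 54.5 against 34.5 to 41.2 CPM (-0.42, SE 0.19, edgeR adjusted p = 0.391). The list's median was -0.12, with 4 positive and 9 negative values.

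Some marker sums of other cell types also differed between the genotypes. The fibroblast sum, which includes *Dcn*, and the endocardial sum were higher in every *Wt1KOΔEC* library than in any *ControlΔEC* library. So were *H19*, *Igf2* and *Nnat*, which are picked here for that reason, so their match with the sums was settled by the choice. *Peg13*, *Impact*, *Kcnq1ot1* and *Rian* went the other way without overlap. The counts of marker genes that follow stand beside 13.1% of all genes tested. Of the 10 fibroblast genes 5 had an unadjusted p under 0.05, all higher, and *Col1a1* was called (log2 fold change 1.34, SE 0.17, edgeR adjusted p = 0.0441). The 2 with a negative value were *Dpt* (-1.60, SE 0.85), which was lower without overlap, and *Postn* (-0.16, SE 0.25). The paper counts *Col1a1*, *Col3a1* and *Dcn* among venous markers overexpressed in the mutant cells. It also counts *Rgs5* and *Kcnj8*, both on the mural list, as arterial genes, with *Rgs5* downregulated and *Kcnj8* not significantly changed. *Rgs5* had 165, 26.8 and 164 CPM in *ControlΔEC* and 25.4, 17.9 and 19.4 CPM in *Wt1KOΔEC*. Of the 6 endocardial genes 4 passed, all higher, and *Plvap*, a protein of endothelial fenestrae, was called (2.31, SE 0.18, edgeR adjusted p = 0.00319). Of the 10 epicardial genes 2 passed, both higher, *Upk3b* and *Msln*. That list held 8 positive and 2 negative values, the latter *Aldh1a2* (-0.05, SE 0.66) and *Muc16* (-2.19, SE 2.30). *Clu*, its most abundant gene, overlapped between the genotypes. Of the 10 mural genes 4 passed, all lower. Of the 9 mural genes tested 8 had a negative value and *Tagln* a positive one (0.92, SE 0.85). Of the 8 macrophage genes 5 passed, all lower, of the 8 erythroid genes 2 were higher and 2 lower, and *Nppa* of the cardiomyocyte list and *Emcn* of the endothelial list were higher. The cardiomyocyte factor *Nkx2-5* had none in the 3 *ControlΔEC* libraries and *Wt1KOΔEC* replicate 1, with 9 and 23 counts in the other two, and the fibroblast factor *Tcf21* none in *ControlΔEC* replicate 2. *Krt8*, *Lrrn4*, *Muc16* and *Msln* of the epicardial list, *Myh11* of the mural list and *Hbb-bh1* of the erythroid list had no count in at least 1 library. The summed cardiomyocyte (105 to 220 CPM), erythroid (2422 to 7494 CPM) and macrophage (235 to 895 CPM) lists overlapped between genotypes. The erythroid and macrophage sums were both highest in *ControlΔEC* replicate 2. The part of all these markers in the levels of imprinted genes was not tested.

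**Figure D4:**
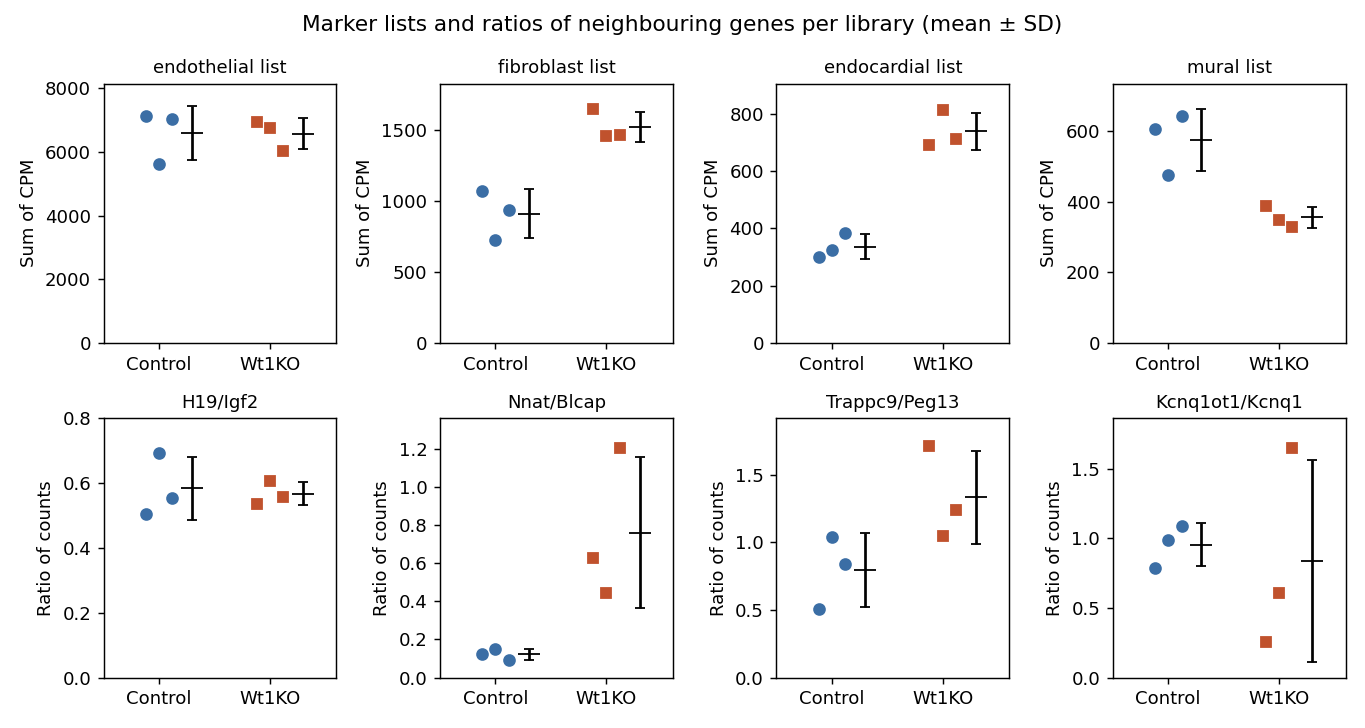
Top row, summed CPM of the endothelial, fibroblast, endocardial and mural lists per library; bottom row, ratio of counts of neighbouring imprinted genes per library; bars show mean ± SD (n = 3), all axes start at 0 and points are replicates 1 to 3 from left to right. The fibroblast, endocardial and mural sums and the *Nnat* to *Blcap* ratio separate the genotypes, while the *H19* to *Igf2* ratio (0.51 to 0.69 against 0.54 to 0.61) overlaps.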

How the data were processed

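Sorted mGFP+ ECs were profiled by SMART-seq2 with oligo-dT priming, with 3 biological replicates per genotype as the labels give them; the p-values measure the spread between these libraries. The deposited values are expected counts per gene, which the authors made with STAR 2.7.8a and RSEM 1.3.0; the table holds them as whole numbers, not normalized. The submitters' processing notes name GRCm38, whereas the study's methods name GRCm39; gene positions, exonic lengths and promoter windows given here were looked up by gene ID in GENCODE vM39 on GRCm39. Library totals ran from 26037324 to 44779020 counts, and after TMM scaling of these totals 3 counts correspond to 0.061 to 0.119 CPM; these limits cover counting error only.

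Counts were analysed in R 4.3.3. The 16296 genes that reached 10 counts in 2 or more libraries were fitted with edgeR 4.0.16, using TMM normalization, the quasi-likelihood F test and Benjamini-Hochberg adjustment over all of them. A call needed an adjusted p under 0.05 and a log2 fold change beyond 0.58 in either direction. SEs were obtained by dividing each fitted log2 fold change, without its sign, by the root of F. CPM use TMM-scaled library sizes, and ratios of neighbouring genes use raw counts. DESeq2 1.42.0, which the study used at version 1.18, and limma 3.58.1 (voom) were alternatives, beside other scalings and filters, a replicate block and leaving out each library. The scripts were tested on simulated data.

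The imprinted genes, their parental classes, the marker lists (endothelial, cardiomyocyte, fibroblast, epicardial, mural, endocardial, erythroid, macrophage, other imprinted genes, imprint maintenance) and the tests were chosen with earlier results of these data known. Values per library are given for members with a mean of at least 10 CPM in a genotype, without overlap or with an unadjusted p under 0.05; of the other lists, genes under that p without overlap, the most abundant gene, defining genes without counts and called genes. *Meg3*, *Zfp57*, *Zfp445*, *Upk3b*, *Nppa*, *Emcn*, *Npr3*, *Cytl1*, *Gata4*, *Hapln1*, *Dpt*, *Postn*, *Aldh1a2*, *Tagln*, *Rgs5*, *Kcnj8*, *Ube3a* and *Ddc* were named after their values were seen. Some window sequences and the search of the windows for other motifs are not reported here.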

Additional observations from a re-analysis of the deposited data

How the results depend on the processing

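No imprinted gene was called under limma-voom, RLE, upper-quartile or library-size scaling, filterByExpr, the replicate block, any left-out library, or without *Rn18s* and mitochondrial genes, the last chosen after seeing the data. DESeq2 called 3 (767 of all genes), no filter called 1 (*Nnat*; 296 of all genes), 10 counts in every library called 1 (*Nnat*; 113 of all genes), and an unadjusted p with the fold limit passed 7 (10.1% of all genes). With a library left out, between 2 (without *Wt1KOΔEC* replicate 3) and 37 (without *ControlΔEC* replicate 3) of all genes were called, beside 12 with all libraries; the count was 26 without *ControlΔEC* replicate 2, 4 without *ControlΔEC* replicate 1, and 3 without *Wt1KOΔEC* replicate 1 or *Wt1KOΔEC* replicate 2. The maternal median was 0.63 under limma-voom and -0.14 with the tissue- or isoform-dependent genes included. With a library left out it ran from -0.67 (without *Wt1KOΔEC* replicate 2, where *Phlda2* was not tested) to 0.52 (without *ControlΔEC* replicate 3). The paternal median was 0.17 with library size only. It was 0.084 with 10 counts in every library, where 14 rather than 17 genes were tested. With a library left out it ran from -0.0017 (without *Wt1KOΔEC* replicate 3) to 0.32. Library size only moved the median of all genes from -0.03 to -0.18, and turned *Grb10* to -0.039 and *Airn* to -0.16; with 10 counts in every library *Airn* was -0.0058. With a library left out *Gnas* ranged from -0.29 to 0.092, *Airn* from -0.35 to 0.39, *Plagl1* from -0.18 to 0.00067 and *Sgce* from -0.036 to 0.48. Of the 31 members tested, 20 had the same sign in every fit; *Grb10*, *Airn*, *Gnas*, *Plagl1*, *Sgce*, *Meg3*, *Mirg*, *Rtl1*, *Slc22a18*, *Usp29* and *Zdbf2* did not. *Meg3* was -1.04 under limma-voom. The causes were not tested.

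Same-numbered libraries showed no shared deviation: their deviations correlated at 0.06, 0.00 and 0.02. These correlations cannot tell whether such libraries shared a litter or a preparation. Library identifiers begin with AT for *ControlΔEC* and with AU for *Wt1KOΔEC*, and what these letters mean is not stated. A difference linked to them could not be told apart from genotype. With the replicate block 5 genes and no member were called, and the maternal median was 0.64. Depth limits what can be said of members with few counts, such as *Phlda2*, *Rtl1* and *Mirg*.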
